A study of Rattus norvegicus with 16 samples.

Results

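Carbonic anhydrases are the enzymes that convert carbon dioxide and water to bicarbonate and a proton, and 4 of them, Car2, Car3, Car4 and Car14, are described here in 2 rat skeletal muscles. The 4 genes were taken as carbonic anhydrases of muscle from the array annotation, where 8 of 31099 probe sets carry their symbols, and all 4 were among the 10416 of 14217 named genes that passed the filter on low values. They were chosen by measured values, their levels and differences across the same groups, so those levels and differences are given as a description without a test. Messenger RNA was measured on 16 Affymetrix arrays from 4 rats numbered 15, 25, 27 and 29, and their strain, age and sex are not given in the sources used here. One muscle was the rectus extraocular muscle group (EOM), which turns the eye, and the other was a lower leg muscle, the tibialis anterior (TA). Frozen sections were stained for acetylcholinesterase to show the neuromuscular junctions, and a laser then cut out junctions or fibre regions away from them. Every rat gave 1 array to each of the groups EOM_fiber, TA_fiber, EOM_synapse and TA_synapse (n = 4), and the labels name no drug, surgery or transgene. Each capture pooled about 1000 junctions, or an equal amount of fibre away from them, so a lower signal from fewer cells of a type and from less RNA per cell cannot be told apart.

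Carbonic anhydrases speed the exchange between carbon dioxide and bicarbonate, and thereby the movement of acid and carbon dioxide out of working muscle. Car3 is the abundant cytosolic form of skeletal muscle and fat and has low hydratase activity. Car2 is the widespread fast cytosolic form, known also from red blood cells and glia. Car4 is tethered to the outer face of the plasma membrane, in muscle mainly on capillaries and fibre surface, and Car14 spans the membrane with its catalytic domain outside.

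In rat assembly GRCr8, Car2 and Car3 are direct neighbours on chromosome 2, followed by Car1 and Car13. Car14 lies elsewhere on chromosome 2, between Aph1a and Anp32e, and Car4 lies on chromosome 10 between Myo19 and Usp32. Promoter sequences were matched for 2 of the 4 genes, the membrane-bound forms Car4 and Car14, and are shown so that the start regions of these 2 can be read beside their levels. Each is the RefSeq sequence (GRCr8) from 250 bases before to 50 bases after the gene's start, 5′ to 3′ on the gene's strand, and capitals mark CANNTG, the E-box core bound by basic helix-loop-helix factors such as MyoD. Car4 lies at chr10:70325108-70325407 on the plus strand, and Car14 at chr2:186138115-186138414 on the minus strand.
Car4: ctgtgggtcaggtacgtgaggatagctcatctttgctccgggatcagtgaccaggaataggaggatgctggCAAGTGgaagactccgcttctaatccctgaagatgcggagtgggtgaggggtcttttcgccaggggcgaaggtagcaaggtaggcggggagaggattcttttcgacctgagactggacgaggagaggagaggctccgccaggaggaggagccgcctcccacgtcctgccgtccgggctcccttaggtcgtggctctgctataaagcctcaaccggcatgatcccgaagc
Car14: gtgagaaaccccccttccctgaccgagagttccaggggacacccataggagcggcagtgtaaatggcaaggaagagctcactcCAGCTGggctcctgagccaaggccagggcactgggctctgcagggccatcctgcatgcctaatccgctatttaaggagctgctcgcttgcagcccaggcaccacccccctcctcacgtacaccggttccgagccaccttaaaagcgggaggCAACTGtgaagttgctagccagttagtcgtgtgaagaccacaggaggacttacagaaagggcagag
The Car4 window held 1 CANNTG, at -179 from the start, and the Car14 window held 2, at -167 and -16. CANNTG is its own reverse complement, so both strands were read at once, and 72.1% of 33469 promoters of the same length held it. CCGGAA, the N-box described in promoters of junction genes, was searched on both strands, and the 2 motifs cannot share bases. It was in 0 of these 2 windows and in 15.0% of all promoters, which says only that these letters are not in these windows.

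Values per array are deposited linear intensities in the order of rats 15, 25, 27 and 29. Differences are log2 values ± SE from a limma fit on quantile-normalized log2(intensity + 16) with the rat as a block, and group levels on that scale are means ± SD with n = 4. The pseudocount of 16 compresses the differences of dim genes, and levels of different probe sets are not compared with each other. The median intensity of an array lay between 33.3 and 56.9, and correlations between arrays of a group before normalization lay from 0.867 to 0.949 across probe sets. The junction gene Chrne, the adult acetylcholine receptor subunit, stood at 11.36 ± 0.14 in EOM_synapse and 10.42 ± 0.35 in TA_synapse. In fibre it stood at 4.99 ± 0.83 in EOM and 4.39 ± 0.08 in TA, near the floor, so its difference has only a lower bound and is given without a test. It lay above the array median in 9 of 16 arrays.

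Car3 was abundant in fibre and junction captures of TA and in EOM fibre, and it was far lower at the EOM junction. In EOM_fiber the intensity of Car3 was 7199.5, 7120.4, 3172.2 and 6215.0. In EOM_synapse it was 209.4, 301.6, 141.1 and 376.9. The highest EOM junction array lay below the lowest EOM fibre array, and rat 27 was lowest in both groups. In TA_fiber the intensity of Car3 was 22655.5, 15401.2, 22488.4 and 21431.2. In TA_synapse it was 16706.2, 17228.1, 21582.0 and 16073.2. The ranges of these TA groups overlapped, and every TA array lay above every EOM array.

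On the normalized scale Car3 stood at 12.44 ± 0.51 in EOM_fiber, 7.93 ± 0.60 in EOM_synapse, 13.94 ± 0.31 in TA_fiber and 14.15 ± 0.07 in TA_synapse. The order from low to high was thus EOM junction, EOM fibre and then both TA groups, which did not differ beyond their spread. At the EOM junction Car3 was lower than in EOM fibre by 4.50 ± 0.28, or 22.7-fold, and the 4 rats ranged from -5.00 to -3.99. This was the fall ranked 2 among the 10416 genes. In TA the difference between junction and fibre was 0.21 ± 0.28, with 3 of 4 rats above 0, and its sign turned on values as deposited (-0.19) and on arrays centred on a common median (-0.22). The interaction, which is the EOM junction-to-fibre difference less the TA one, was -4.72 ± 0.39, or 26.3-fold, with rats between -5.21 and -3.85.

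Between muscles, Car3 was lower in EOM on both sides. In fibre the difference was -1.5 ± 0.28, or 2.83-fold, with 4 of 4 rats from -2.40 to -0.71. At the junction it was -6.22 ± 0.28, or 74.6-fold, with rats from -7.02 to -5.49, and this too was the fall ranked 2 among all genes tested.

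A separate Car3 probe set gave the same order with a dimmer signal. Its intensity in EOM_fiber was 270.3, 329.6, 105.4 and 312.5. In EOM_synapse it was 24.7, 3.3, 25.2 and 5.1, and 0 of these 4 arrays lay above the array median. The EOM junction values are therefore near the floor of the array, and no order among them is read. In TA_fiber this probe set read 406.7, 286.1, 886.2 and 849.6, and in TA_synapse 511.9, 821.3, 406.7 and 693.6. Its difference between EOM junction and EOM fibre was -3.07 ± 0.44, that between TA junction and TA fibre 0.11 ± 0.44, and its interaction -3.18 ± 0.62. Both probe sets therefore placed Car3 lower at the EOM junction in 4 of 4 rats, but the size was smaller on the dim one. Between the fibres the dim probe set gave -1.16 ± 0.44, with 3 of 4 rats and overlapping groups.

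**Figure D1:**
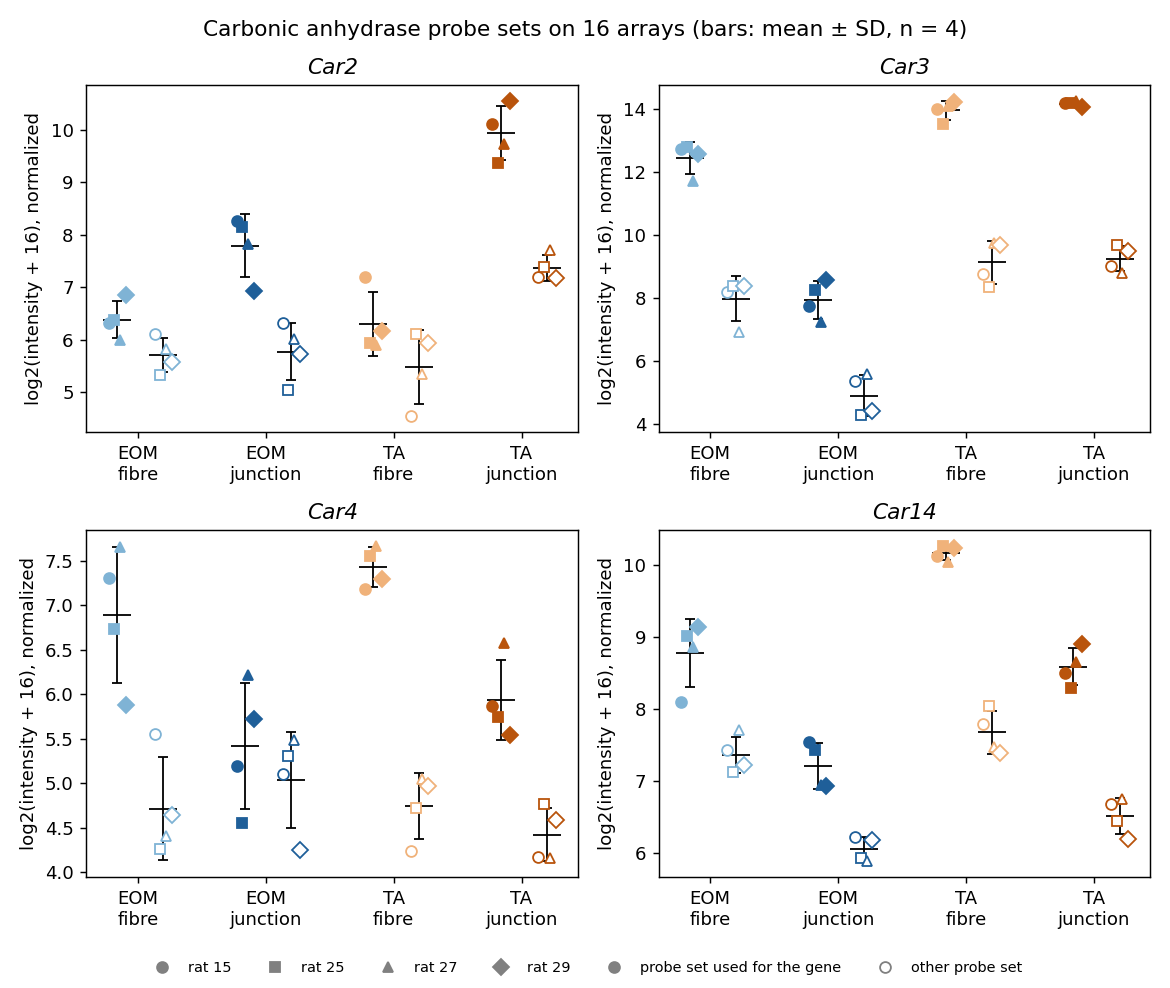
Normalized log2(intensity + 16) of Car2, Car3, Car4 and Car14 on the 16 arrays, by group (horizontal axis), with a symbol for each rat, filled for the probe set that stands for the gene and open for the other one, and bars for mean ± SD (n = 4). Car3 has a mean of 12.44 in EOM fibre and 7.93 at the EOM junction while both TA groups lie near 14, and Car2 is highest at the TA junction, at 9.94; vertical scales differ between genes.

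Car2, the neighbour of Car3 on the chromosome, was higher at the TA junction than in fibre on both probe sets. At the EOM junction it was higher on the brighter probe set only. In EOM_fiber its intensity was 79.4, 66.3, 49.6 and 99.7, and in EOM_synapse 303.2, 281.9, 228.8 and 113.7. These groups did not overlap, but rat 29 had the highest fibre value and the lowest junction value. In TA_fiber the intensity of Car2 was 120.8, 53.7, 38.9 and 44.6, and in TA_synapse 1099.6, 666.2, 798.8 and 1515.5. Every TA junction array lay above all 12 arrays of the other groups.

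The normalized levels of Car2 were 6.30 ± 0.61 in TA_fiber, 6.38 ± 0.35 in EOM_fiber, 7.79 ± 0.60 in EOM_synapse and 9.94 ± 0.51 in TA_synapse. The fibre groups overlapped and differed by 0.08 ± 0.34, with 3 of 4 rats above 0. In TA the junction was higher than fibre by 3.64 ± 0.34, or 12.5-fold, with rats between 2.92 and 4.38, and this was the rise ranked 32 of 10416. In EOM the junction was higher by 1.41 ± 0.34, or 2.65-fold. The EOM value was 1.95, 1.77, 1.83 and 0.08 in rats 15, 25, 27 and 29, so 3 rats agreed closely and rat 29 showed almost no difference. Without rat 29 the EOM value was 1.85 ± 0.28. Between the junctions Car2 was lower in EOM by 2.15 ± 0.34, or 4.44-fold, in 4 of 4 rats. The interaction was -2.23 ± 0.47 with rats from -4.29 to -0.98, and -1.55 ± 0.40 without rat 29.

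The second Car2 probe set lay above the array median in 9 of 16 arrays, of which 4 were those of the TA junction. There it read 131.9, 148.3, 184.9 and 127.7, above every array of the other groups. In TA it was higher at the junction than in fibre by 1.89 ± 0.36 and lower in EOM than in TA junctions by 1.60 ± 0.36, in 4 of 4 rats each. Between EOM junction and EOM fibre it gave 0.06 ± 0.36 with overlapping groups, against 1.41 on the brighter probe set. The 2 probe sets thus differ on the EOM junction, where the dim one lay above the array median in 2 of 4 junction arrays and 1 of 4 fibre arrays.

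Car4 was lower at the junction in both muscles. In EOM_fiber its intensity was 150.7, 93.6, 187.2 and 48.1, and in EOM_synapse 21.2, 8.0, 53.5 and 38.0. Rat 29 had the lowest fibre value, and its fibre array lay below the junction array of rat 27, so the EOM groups overlapped. In TA_fiber the intensity of Car4 was 119.8, 158.6, 166.2 and 128.0, and in TA_synapse 37.1, 32.2, 86.7 and 30.5. The TA groups did not overlap.

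The normalized levels of Car4 were 5.42 ± 0.71 in EOM_synapse, 5.93 ± 0.45 in TA_synapse, 6.89 ± 0.77 in EOM_fiber and 7.43 ± 0.23 in TA_fiber. Neighbours in that order overlapped throughout. Junction was lower than fibre by 1.48 ± 0.30 in EOM, or 2.78-fold, with rats between -2.18 and -0.16. In TA it was lower by 1.49 ± 0.30, or 2.81-fold, with rats between -1.81 and -1.10. The interaction was 0.02 ± 0.43. Between the muscles Car4 differed by -0.53 ± 0.30 in fibre and -0.52 ± 0.30 at the junction, each with the sign in 3 of 4 rats and with overlapping groups. Car4 lay above the array median in 4 of 4 arrays of each fibre group but in only 1 of 4 of each junction group, so its junction levels are close to the floor. The 2 differences can therefore be too small, and neither their likeness nor the interaction shows that Car4 fell equally in both muscles. Its second probe set lay above the median in 0 of 16 arrays and adds no level.

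Car14 was lower at the junction in both muscles and lower in EOM than in TA, and these differences were alike in size. In EOM_fiber its intensity was 256.3, 502.8, 451.8 and 541.8, and in EOM_synapse 184.3, 167.7, 113.2 and 114.2. In TA_fiber it was 1147.0, 1230.2, 1131.0 and 1305.7, and in TA_synapse 355.0, 303.2, 368.7 and 467.4. All EOM junction arrays lay lowest and all TA fibre arrays highest, and the EOM fibre and TA junction ranges overlapped between them.

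Car14 stood at 7.21 ± 0.32 in EOM_synapse, 8.59 ± 0.26 in TA_synapse, 8.78 ± 0.47 in EOM_fiber and 10.17 ± 0.10 in TA_fiber. Junction was lower than fibre by 1.57 ± 0.24 in EOM and 1.58 ± 0.24 in TA, or 2.96-fold and 2.98-fold. EOM was lower than TA by 1.39 ± 0.24 in fibre and 1.38 ± 0.24 at the junction, or 2.62-fold and 2.60-fold. All 4 differences had their sign in 4 of 4 rats, with no overlap of the groups. The interaction was 0.01 ± 0.35, with rats between -0.87 and 1.07. The second Car14 probe set, above the array median in 16 of 16 arrays, gave -1.31 ± 0.22 and -1.15 ± 0.22 for junction against fibre in EOM and TA. Between the muscles it gave only -0.30 ± 0.22 in fibre, in 3 of 4 rats, and -0.46 ± 0.22 at the junction, with overlapping groups. The lower level at the junction was thus seen on both probe sets, and the size of the difference between muscles depended on the probe set.

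**Figure D2:**
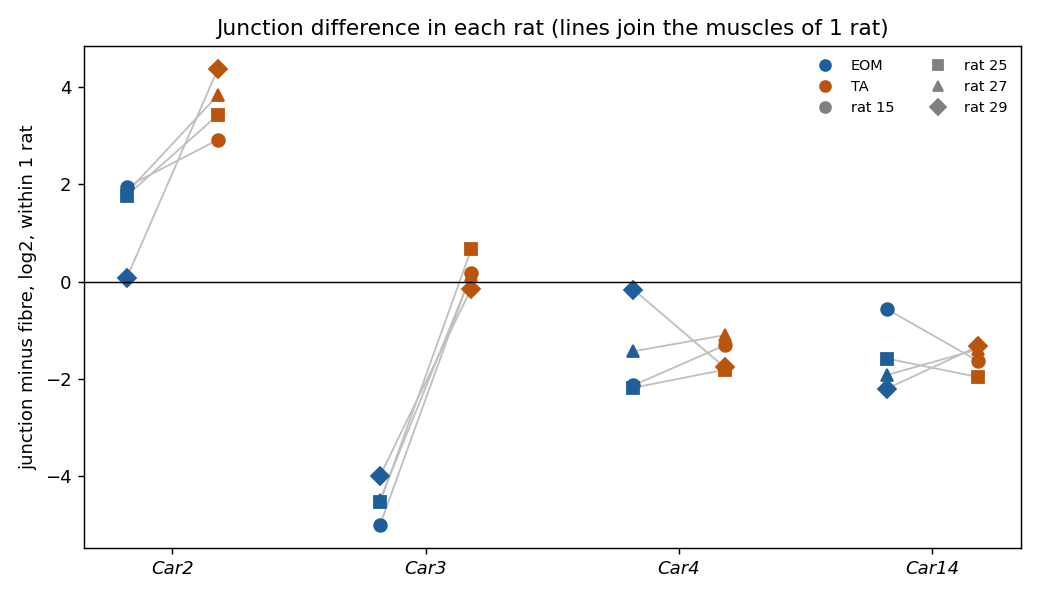
Junction minus fibre within each rat (vertical axis, log2 difference of normalized values) for the 4 genes, EOM in blue and TA in orange, with grey lines joining the muscles of 1 rat and a symbol for each rat. For Car3 all EOM values lie between -5.00 and -3.99 and the TA values around 0; for Car2 the EOM value of rat 29 is 0.08 while the other 3 rats lie from 1.77 to 1.95.

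Side by side, the 4 genes held 3 patterns. Car4 and Car14 were lower at both junctions, Car4 with junction levels near the floor. Car2 was higher at the TA junction on both probe sets, and at the EOM junction on 1 probe set and in 3 of 4 rats, where the second probe set gave 0.06 ± 0.36 and rat 29 gave 0.08. Car3 was lower at the EOM junction with no difference beyond its SE in TA. Groups did not overlap for 2 of the 4 genes between the fibres of the muscles, against 16.4% of all tested genes in either direction. They did not overlap for 3 of the 4 between the junctions (22.8% of all genes), 3 between EOM junction and fibre (17.1%) and 3 between TA junction and fibre (13.2%). Because the genes were chosen with these contrasts known, nothing is read from those counts.

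**Figure D3:**
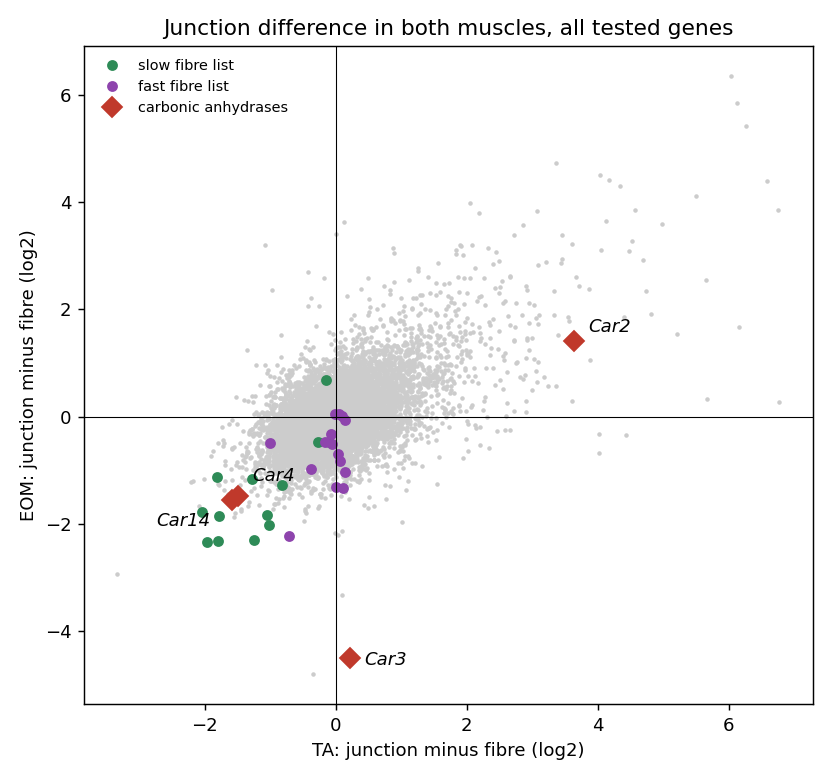
Junction minus fibre in TA (horizontal axis) and in EOM (vertical axis), log2 differences from the limma fit, for the 10416 genes tested (grey points), with the slow fibre list in green, the fast fibre list in purple and the 4 carbonic anhydrases as red diamonds. Car4 and Car14 lie beside each other at about -1.5 on both axes among genes of the slow list, Car3 lies at 0.21 and -4.50, and Car2 at 3.64 and 1.41.

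Other members of the family were dim or did not pass the test. Of 12 further carbonic anhydrases and related proteins listed, 10 had a named probe set and 3 passed the filter. Car1, Car5a and Car12 lay above the array median in 0 of 16 arrays, Car6, Car9 and Car10 in 1 and Car7 in 2. Car5b, a mitochondrial form, and the catalytically inactive Car8 lay above it in 5 arrays, and Car11, also inactive, in 16. Car11 stood at 7.36 ± 0.35 in EOM_fiber, 7.28 ± 0.12 in EOM_synapse, 7.50 ± 0.28 in TA_fiber and 7.29 ± 0.31 in TA_synapse. Of these 3 genes, 0 were called in any of the 5 contrasts by limma (adjusted p from 0.353 to 0.998, and 0 at an unadjusted p under 0.05), and the largest difference was 0.61 on the log2 scale.

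Carbonic anhydrases work beside the carriers that move bicarbonate, protons and lactate across the membrane. The list of these carriers also holds partner proteins such as Bsg and channels such as Aqp1, and 16 of its 32 genes were tested. Between the fibres 3 were higher in EOM and 2 lower, where 8.40% and 7.15% of all tested genes were called higher and lower. Between the junctions it was again 3 higher and 2 lower in EOM, against 7.82% and 8.61% of all genes. The list's median difference was 0.50 in fibre and 0.26 at the junction, and that of all genes 0.03 and 0.01. Slc4a3, a chloride and bicarbonate exchanger of excitable tissues, was at 8.53 ± 0.88 in EOM_fiber and 5.37 ± 0.52 in TA_fiber. It was higher in EOM by 3.16 ± 0.40 in fibre (limma adjusted p = 0.000172) and 2.55 ± 0.40 at the junction (adjusted p = 0.000717). Slc4a3 lay above the array median in 12 of 16 arrays. Its TA levels, 5.59 ± 0.83 at the junction, are near the floor, so both differences can be too small. The sodium bicarbonate cotransporter Slc4a4 was lower in EOM fibre by 1.19 ± 0.23 (adjusted p = 0.00338), and the sodium proton exchanger Slc9a2 higher at EOM than at TA junctions by 1.22 ± 0.24 (adjusted p = 0.00354). All of these had their sign in 4 of 4 rats. The other calls in fibre were the water channel Aqp1 and Slc9a2, both higher, and the lactate carrier Slc16a1, lower, and at the junction Aqp1, higher, and Slc4a1 and Slc4a4, lower. Each of these was lost in at least 1 leave-one-out fit, except Aqp1 in fibre (1.28 ± 0.26, limma adjusted p = 0.00469), which was lost with the mean of its probe sets (0.0642). The count of 5 in fibre was 3 without the TA_fiber array of rat 29, without rat 27 and without rat 29. The count of 5 at the junction was 2 without the EOM_synapse array of rat 25 or 29 and without rat 25 or 29, and 3 without EOM_synapse 27 or TA_synapse 25, 27 or 29.

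Between junction and fibre the same list had 1 gene higher and 3 lower in EOM, against 5.62% and 4.51% of all genes, and 0 higher and 4 lower in TA, against 6.70% and 3.53%. On arrays centred on a common median, calls of all genes at the EOM junction were 79.4% higher instead of 55.5%. Over the list the median difference was -0.36 at the EOM junction and -0.37 at the TA junction. Slc16a3, the lactate exporter MCT4 of glycolytic fibres, stood at 10.01 ± 0.41 in EOM_fiber, 8.20 ± 0.50 in EOM_synapse, 10.52 ± 0.24 in TA_fiber and 8.98 ± 0.23 in TA_synapse. It was lower at the junction by 1.80 ± 0.27 in EOM and 1.54 ± 0.27 in TA (limma adjusted p = 0.000783 and 0.00199), in 4 of 4 rats. In the interaction 0 of the 16 genes were called by limma, with 2 at an unadjusted p under 0.05, where 0.259% of all genes were called higher and 0.662% lower. The other calls were Slc9a2, higher, and Aqp1 and Slc4a1, lower, at the EOM junction, and Bsg, the chaperone of lactate carriers, Slc16a1 and Aqp1, lower, at the TA junction, each lost in at least 1 leave-one-out fit. The EOM count of 4 was 2 without EOM_synapse 25, EOM_synapse 27 or rat 25, and 1 without rat 29, and the TA count of 4 was 1 without rat 27 and 2 without rat 29.

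Car3 and the fibre types were set side by side because Car3 is known as an abundant protein of slow fibres. Like the other gene lists, the slow and fast lists were chosen with earlier results of these data known, so their counts are a description. Of 13 tested slow fibre genes, 8 fell at the EOM junction and 7 at the TA junction with 0 higher, where 4.51% and 3.53% of all tested genes were called lower. The list's medians were -1.78 and -1.25, and those of all genes -0.04 and -0.01. Myl3, the slow ventricular essential myosin light chain, stood at 10.71 ± 0.36 in EOM_fiber, 8.36 ± 0.52 in EOM_synapse, 12.49 ± 0.69 in TA_fiber and 10.53 ± 0.67 in TA_synapse. It fell by 2.35 ± 0.37 in EOM and 1.96 ± 0.37 in TA (limma adjusted p = 0.00127 and 0.00384), and Myoz2, a slow calsarcin of the Z disc, by 1.86 ± 0.31 and 1.77 ± 0.31 (0.00174 and 0.00205). In the interaction 0 of the 13 were called by limma, with 1 at an unadjusted p under 0.05. Car14 and Car4 had -1.57 and -1.48 in EOM and -1.58 and -1.49 in TA. Both genes lay within the range of the slow list in both muscles, and Car3 did not. That range was wide, from -2.35 to 0.69 (Atp2a2) in EOM and from -2.03 to -0.09 in TA, so lying within it separates little. The fast list, from -2.22 to 0.05 in EOM, held the EOM values too, but its lowest TA value was -1. The slow list's EOM count of 8 was 5 without EOM_fiber 25, EOM_synapse 15 or rat 15. The TA count of 7 was 2 without rat 15, 3 without TA_fiber 15, TA_synapse 29 or rat 29, and 4 without TA_fiber 27, TA_fiber 29, TA_synapse 25 or rat 27.

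Of 15 fast fibre genes tested, 5 were lower at EOM than at TA junctions, namely Mybpc2, Myh2, Actn3, Myoz1 and Casq1, and 0 were higher, against 8.61% and 7.82% of all genes called lower and higher. Those not called had differences of either sign, and 5 of the 15 had a positive one. The list's median was -0.50, and that of all genes 0.01. Mybpc2, the fast myosin-binding protein C, stood at 13.03 ± 0.18 in EOM_fiber, 11.69 ± 0.50 in EOM_synapse, 14.07 ± 0.12 in TA_fiber and 14.19 ± 0.27 in TA_synapse, which is the order of groups seen for Car3 with smaller steps. Its difference between the junctions was -2.49 ± 0.20 (limma adjusted p = 2.78e-06). The myosin heavy chain Myh2 was lower there by 2.19 ± 0.25, the actinin Actn3 by 2.17 ± 0.20, the calsarcin Myoz1 by 1.35 ± 0.18 and the calsequestrin Casq1 by 1.30 ± 0.21, all in 4 of 4 rats. Between EOM junction and fibre 6 of the 15 fell and 0 rose, against 4.51% and 5.62% of all genes, with a median of -0.51, and 3 fell without rat 25. Myh2 fell by 2.22 ± 0.25, Mybpc2 by 1.33 ± 0.20 and Casq1 by 1.32 ± 0.21 (limma adjusted p = 8.68e-05, 0.000892 and 0.00126). Between TA junction and fibre the median was 0.01 and 1 gene, Myh1, was lower by 1 ± 0.23 (limma adjusted p = 0.0125), against 3.53% of all genes called lower. That call was lost without TA_fiber 27, TA_fiber 29, TA_synapse 29, rat 25 or rat 29 (adjusted p from 0.0516 to 0.122). The slow list between the muscles was mixed, with 4 genes higher and 3 lower in EOM fibre, against 8.40% and 7.15% of all genes, and 2 higher and 2 lower at the EOM junction, against 7.82% and 8.61%. Its fibre count of 7 was 4 without EOM_fiber 27, EOM_fiber 29, TA_fiber 27 or EOM_synapse 27, and 2 without rat 27. Of the fast list 1 was higher and 3 were lower in EOM fibre, against the same 8.40% and 7.15%. In the interaction 1 of the 15 was called lower, against 0.662% of all genes, namely Mybpc2 (-1.45 ± 0.28, limma adjusted p = 0.0285), and that call was lost in 15 leave-one-out fits, among them those without rat 15, 25, 27 or 29 (adjusted p up to 0.213).

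The genes whose levels followed each carbonic anhydrase most closely are named by Pearson's r over the 16 arrays, which share 4 rats and 4 groups, so r mostly carries the group means. For Car3 they were Prkag3, a regulatory subunit of AMP-activated kinase (r = 0.965), the phosphoglucomutase Pgm1 (0.962), Mybpc2 (0.959), the glycerol-3-phosphate dehydrogenase Gpd1 (0.957) and the M-band protein gene Myom2 (0.950). Myom2 stood at 10.33 ± 0.84 in EOM_fiber, 7 ± 0.81 in EOM_synapse, 14.06 ± 0.23 in TA_fiber and 14.16 ± 0.03 in TA_synapse. The lowest r with Car3 were those of the protease gene Pcsk6 (-0.948), Tpbg (-0.944) and the follistatin gene Fst (-0.943). Fst stood at 8.45 ± 0.77 in EOM_fiber, 10.84 ± 0.34 in EOM_synapse, 6.46 ± 0.41 in TA_fiber and 6.85 ± 0.74 in TA_synapse. These genes were highest at the EOM junction, then in EOM fibre, and lowest in both TA groups.

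For Car2 the closest were Shroom3, a regulator of cell shape (r = 0.955), the Ets factor gene Etv4 (0.952), Map3k7cl (0.942), the interleukin 1 receptor gene Il1r1 (0.934) and the mitochondrial protease gene Htra2 (0.934). Etv4 stood at 4.44 ± 0.20 in EOM_fiber, 6.36 ± 0.36 in EOM_synapse, 4.37 ± 0.48 in TA_fiber and 9.17 ± 0.22 in TA_synapse, and like Car2 it was highest at the TA junction. For Car14 they were the mitochondrial ribosome gene Mrps9 (0.947), Vamp5 (0.938), Plbd1 (0.934), Cox19 (0.922) and the kinase gene Map2k6 (0.921). Vamp5 stood at 9.30 ± 0.32 in EOM_fiber, 7.94 ± 0.46 in EOM_synapse, 10.07 ± 0.18 in TA_fiber and 9.19 ± 0.26 in TA_synapse. For Car4 the highest r were lower, namely RGD1564887 (0.874), Mtres1 (0.872), Uqcc6 (0.852), Smad3 (0.843) and Neurl1 (0.841).

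Markers of other cells in the captures moved with the groups and are given as summed deposited intensity over each list. Fat cells are a known site of Car3. The adipocyte list (9 of 10 on the array, 6 passing the filter, Cidec and Lep above the array median on 0 arrays, Plin1 on 2 and Adipoq on 4) summed to 5751 to 7857 in EOM_fiber, 2993 to 5587 in EOM_synapse, 3508 to 6420 in TA_fiber and 1314 to 2187 in TA_synapse. Most of this sum was Lpl, the lipoprotein lipase that muscle fibres also express, which made up 71.9% to 91.2% of it on each array. Without Lpl the rest of the list summed to 794 to 1283 in EOM_fiber, 461 to 544 in EOM_synapse, 685 to 963 in TA_fiber and 318 to 535 in TA_synapse. The rest was lower at both junctions than in the fibre of the same muscle, without overlap, and overlapped between the junctions. Adipoq, which fat cells secrete, stood at 5.12 ± 0.36 in EOM_synapse and 5.13 ± 0.06 in TA_synapse. In fibre it stood at 5.74 ± 1.08 in EOM and 5.69 ± 0.99 in TA. These levels are near the floor, so nothing is read from their likeness. The part of fat cells in the Car3 difference at the EOM junction was not tested further. Capillaries carry Car4. The endothelial list (10 of 12 on the array, 10 passing) summed to 2704 to 3298 in EOM_fiber, 1424 to 2254 in EOM_synapse, 1578 to 2412 in TA_fiber and 1006 to 1852 in TA_synapse. It was thus lower at the EOM junction without overlap and lower with overlap at the TA junction, in the same direction as Car4, and its part in the Car4 difference was not tested.

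Red cells and glia are known sites of Car2. The erythrocyte list (5 of 9 on the array, 3 passing, Epb42 never above the median) summed to 1060 to 1961 in EOM_fiber, 764 to 1763 in EOM_synapse, 588 to 1278 in TA_fiber and 223 to 865 in TA_synapse. Most of this sum was the globin gene Hbb, which stood at 9.91 ± 0.67 in EOM_synapse and 8.36 ± 1.03 in TA_synapse. Alas2 stood at 5.37 ± 0.46 and 4.98 ± 0.49, so both were higher in EOM_synapse on average. Alas2 lay above the array median in only 7 of 16 arrays, so its levels too are near the floor. Its difference between the junctions, 0.39 ± 0.28, was not called. The anion exchanger Slc4a1 went the other way, at 4.93 ± 0.60 in EOM_synapse and 5.99 ± 0.39 in TA_synapse. It lay above the array median in only 6 of 16 arrays, so its levels are near the floor. The Schwann cell list (8 of 10 on the array, 7 passing, Gjb1 never above the median) summed to 1742 to 2588 in EOM_fiber, 7022 to 12113 in EOM_synapse, 381 to 719 in TA_fiber and 3303 to 5338 in TA_synapse. It was higher at both junctions, as Car2 was on its brighter probe set. However, it was higher in EOM_synapse than in TA_synapse without overlap, where Car2 was lower in EOM. Pmp22 made up 47.2% to 82.2% of this sum on each array. Without Pmp22 the rest summed to 2704 to 4548 in EOM_synapse and 1100 to 1453 in TA_synapse. The junction list (7 of 8 on the array, 6 passing) summed to 1164 to 1610, 11553 to 12490, 283 to 401 and 7924 to 11237 in the same order of groups. This sum was likewise higher in EOM_synapse than in TA_synapse, and Chrna1 made up 43.9% to 54.7% of it there. Gene by gene, 0 of the 6 tested were called between the junctions by limma, against 7.82% of all genes called higher and 8.61% lower. Of these differences 5 were positive and 1, that of Etv5, was negative (-0.1 ± 0.36). The eyeball was frozen with the EOM, and the retinal list (8 of 10 on the array, 1 passing, Sag, Pde6b and Rlbp1 never above the median) stayed between 62 and 241 in all groups. The part of the erythrocyte, Schwann cell and junction signals in the Car2 difference was not tested.

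**Figure D4:**
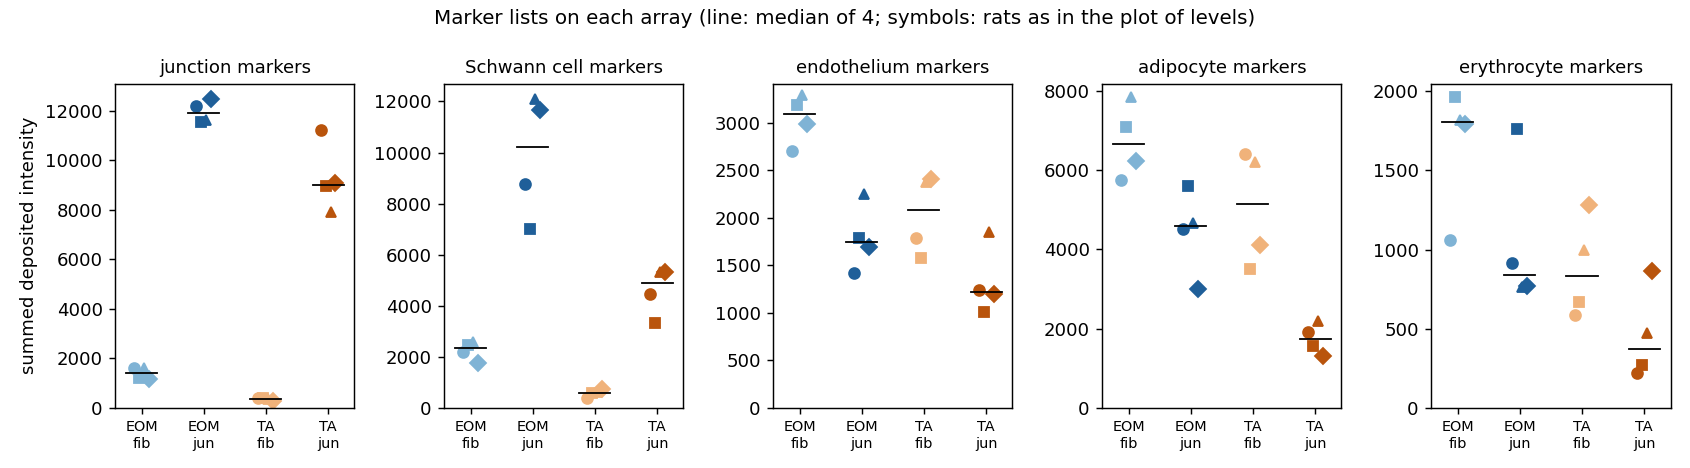
Summed deposited intensity of the marker lists (vertical axes, each from 0) on each array by group, with a symbol for each rat and a line at the median of 4 arrays. The junction and Schwann cell sums are high in both junction groups. They are higher in EOM (11553 to 12490 and 7022 to 12113) than in TA (7924 to 11237 and 3303 to 5338). The adipocyte sum, of which 71.9% to 91.2% is Lpl, is 1314 to 2187 at the TA junction.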

How the data were processed

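The deposited values are linear probe set intensities of 16 Affymetrix arrays. They were scaled by the authors, since the mean left after dropping the highest and lowest 2% of probe sets was 150.06 to 150.08 on each array. Per the labels' protocols, 600 ng of amplified RNA entered the second labelling cycle, and sections were 10 µm thick. The software that summarised the probes was not given in the sources used here. From the deposited intensity, log2(intensity + 16) was computed. Array medians of these values differed by 0.564, over the limit of 0.5, so they were quantile normalized without 57 control probe sets.

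Gene names came from the array annotation with symbols from the GRCr8 gene table: 20832 probe sets had 1 gene, 436 several, and 9831 none listed. Probe sets brighter than the array median on 4 or more arrays were kept, and the brightest on average represented its gene. In limma 3.58.1 (R 4.3.3) the model held 4 group means plus a fixed effect of rat, leaving 9 residual and 4.58 prior degrees of freedom. It was fitted to 10416 genes. P-values were adjusted by Benjamini-Hochberg within each of 5 contrasts, with a threshold of 0.05. The fit was tested on simulated data.

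The title numbers were read as the 4 rats. Residuals from the group means correlated with a mean r of 0.112 between the 24 pairs of arrays that share a number (range -0.0666 to 0.245, with 16 over 0.1). Between the 72 pairs that differ in number and group the mean was -0.0374. These values are across genes.

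The members and the gene and marker lists were chosen with earlier results of these data known. Named genes were the members, for each the 5 genes of highest r (and the 3 lowest for Car3), measured genes of the carbonic anhydrase list, Chrne, and up to 4 genes per list and contrast past the threshold with 1 sign in all rats. Beyond this rule, some genes were named after their values were seen. They were Casq1 between the junctions, the fifth transport gene between the fibres and Aqp1 between the junctions (sign in 3 rats). The marker genes Lpl, Adipoq, Hbb, Alas2 and Slc4a1 were named in the same way. Alternatives covered the block, scaling, pseudocount, filter, probe set rule and leaving out each array and rat.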

Additional observations from a re-analysis of the deposited data

How the results depend on the processing

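Of 540 alternative values of the 20 differences of the 4 genes, 530 moved by less than the spread between rats and 10 by more. Most of the 540 left out 1 array or rat, and the 10 all came from other changes of processing. Leaving out 1 of 4 rats cannot move the mean by as much as that spread. Leaving out an array of a group outside the difference does not move it. The 530 therefore does not measure stability. Signs turned only for Car2 between fibres, Car3 at the TA junction, Car4 between junctions and the interactions of Car4 and Car14. The Car2 interaction lay from -2.65 to -1.55 when 1 array or rat was left out, and from -2.36 to -1.96 on the other settings. Between EOM junction and fibre, Car2 lay from 1.19 to 1.85 and from 0.74 to 1.59 in the same order. Car4 lay there from -1.91 to -1.21 and from -2.02 to -0.58. With a pseudocount of 64, Car2 at the TA junction against fibre was 3 and Car4 -1. With the mean of all probe sets of a gene the same differences were 2.76 and -0.91, Car3 was -5.28 between junctions, -3.79 between EOM junction and fibre and -3.95 in the interaction, and Car14 was -0.85 between fibres. Car3 at the TA junction was -0.19 as deposited and -0.22 centred on a common median. Without the replicate block the all-gene counts were 1383, 1474, 831, 903 and 73, against 1620, 1712, 1055, 1066 and 96 with it (fibres, junctions, EOM junction, TA junction, interaction), and leaving out 1 array or rat gave 924 to 1710, 903 to 1932, 475 to 1121, 586 to 1202 and 25 to 99. Centred arrays gave 1139, 689 and 56 for the junctions, EOM junction and interaction, and a pseudocount of 1 or 64 gave 46 or 218 in the interaction. Values as deposited moved the median of all genes between fibres to 0.11.

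Leaving out 1 array or rat gave these counts per list, in the order of contrasts above: 3 to 6, 2 to 5, 1 to 4 and 1 to 5 for transport, 2 to 8, 4 to 4, 5 to 9 and 2 to 7 for slow and 3 to 4, 5 to 7, 3 to 7, 0 to 1 and 0 to 2 for fast genes. For bicarbonate-using genes it gave 0 to 1 in fibres and junctions and 0 to 2 in TA, and for carbon dioxide-producing genes 0 to 2, 1 to 3, 0 to 2 and 0 to 6. With the mean of probe sets, transport had 3 in fibres and 3 at junctions, carbon dioxide-producing 1 in fibres and slow 4 in TA. Centred arrays gave 2 transport genes in TA, 0 bicarbonate-using genes in fibres, junctions and TA, 1 and 0 carbon dioxide-producing genes at junctions and in EOM, and 2 and 0 fast genes in TA and the interaction. Values as deposited gave 0 and 1 bicarbonate-using genes in fibres and TA, 5, 1 and 10 carbon dioxide-producing genes in fibres, EOM and TA, and 8, 10, 2 and 0 fast genes at junctions, in EOM, TA and the interaction. Without the filter, bicarbonate-using genes were 2 at junctions and 1 in TA, carbon dioxide-producing genes 1 in fibres and 0 in EOM, slow genes 4 in fibres and fast genes 0 in the interaction. Without the replicate block, bicarbonate-using genes were 1 in TA and fast genes 2 in fibres and 0 in the interaction. A pseudocount of 1 gave 1 and 1 carbon dioxide-producing genes in fibres and EOM, 4 slow genes in fibres and 0 fast genes in the interaction, and one of 64 gave 2 fast genes in TA and 4 in the interaction. The causes were not tested. With 4 rats and 1 array each, precision is set by the number of arrays, and probe sets near the array median (Car4 at junctions, the dim Car2 and Car3 probe sets) have compressed differences.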

Other observations

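Genes of enzymes and enzyme complexes that release carbon dioxide, the substrate of the carbonic anhydrases, were compared between junction and fibre. They include genes of complex subunits that do not release it themselves. Of 17 tested, 2 were called lower in EOM and 4 in TA by limma, with 0 higher, against 4.51% and 3.53% of all genes called lower. The list's medians were -0.32 and -0.45, against -0.04 and -0.01 for all genes. Leaving out 1 array or rat gave 0 to 2 calls in EOM and 0 to 6 in TA, and the EOM calls were 0 on centred arrays and without the filter. Between the muscles, 1 was higher and 1 lower in EOM fibre (0 to 2 calls), against 8.40% and 7.15% of all genes, and 2 were lower at the EOM junction (1 to 3), against 8.61%. The malic enzyme Me1, which makes NADPH and carbon dioxide, stood at 8.95 ± 0.06 in EOM_synapse and 10.58 ± 0.53 in TA_synapse, a difference of -1.62 ± 0.23 (limma adjusted p = 0.000294, 4 of 4 rats).

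Of 7 tested enzymes that use bicarbonate, 1 was higher in EOM in fibre and at the junction, where 8.40% and 7.82% of all genes were, so nothing is read about the list. In both cases it was the propionyl-CoA carboxylase subunit Pccb (0.63 ± 0.19 and 0.71 ± 0.19, limma adjusted p = 0.0346 and 0.0189). At the TA junction 2 were lower than in fibre, against 3.53% of all genes, Mccc1 (-0.79 ± 0.18) and Pcca (-0.65 ± 0.19), with adjusted p = 0.0118 and 0.0469. Leaving out 1 array or rat gave 0 to 1, 0 to 1 and 0 to 2 calls in these contrasts. At the EOM junction 0 were called by limma, with 2 at an unadjusted p under 0.05.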
